A study of Mus musculus with 677 samples.

Results

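The lysosome genes described here are 35 named rows of a table of 23420 genes, read across 9 annotated cell types of the mouse intestinal epithelium. They comprise 19 hydrolases, 3 lumenal cofactors, 6 membrane proteins, 6 subunits of the proton pump and the regulator Tfeb. The members were taken by name, with no threshold on their values. The series holds 677 single-cell SMART-Seq2 libraries, each made from the full-length cDNA of 1 cell. All cells came from C57BL/6 mice that per the labels were either wild type (WT) or of the genotype Atg16l2-/- (KO), with no treatment, age or sex given and no promoter or Cre named. Atg16l2 is a homologue of the autophagy gene Atg16l1, and the comparison concerns what its loss does in these cells. Each cell name also carries a run (1 or 2), a code M1 or M2 and a cell type. The codes were read as animals, so that each genotype has 2, although the labels do not spell this out or say whether a code names the same animal in both runs. Values given for 4 animals are in the order WT M1, WT M2, then KO M1, KO M2, and each animal gave 80 to 87 cells in each run.

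Lysosomes are acidic organelles that break down material delivered by endocytosis and autophagy. Their hydrolases work at low pH, which the V-type proton pump maintains by driving protons across the membrane with energy from ATP, while membrane proteins protect the limiting membrane and export the products. Many genes of the organelle carry a short E-box element in their promoter that is bound by Tfeb and related factors, and in the intestine, absorptive cells take up much lumenal material that reaches this compartment.

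Because such an element is shared by many lysosome genes, the member promoters were searched for its core, the 6 bases CACGTG, which reads the same on both strands. RefSeq promoters on build GRCm38.p6 ran from 250 bases before to 50 bases after each gene start and were matched for 29 of the 35 members. The core was present in 10 of these 29 genes (34.5%), against 8.09% of the 27025 genes in the promoter table and 12.6% of the genes of that table that passed the expression filter used here. The following 26-base windows, with the core in capitals and each printed 5′ to 3′ along the strand of its gene, are those nearest the gene start for 6 members that recur in the results, namely a membrane marker, an ion channel, a pair of pump subunits and a pair of proteases.
Lamp1, chr8:13159136-13159161, plus strand: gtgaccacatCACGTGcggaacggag
Mcoln1, chr8:3500464-3500489, plus strand: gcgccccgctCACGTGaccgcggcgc
Atp6v0d1, chr8:105566052-105566077, minus strand: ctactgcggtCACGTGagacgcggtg
Atp6v1a, chr16:44139375-44139400, minus strand: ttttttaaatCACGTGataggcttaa
Ctsd, chr7:142387910-142387935, minus strand: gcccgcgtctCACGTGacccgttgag
Lgmn, chr12:102439126-102439151, minus strand: gaatgtctgtCACGTGgtccatttta

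The core began at position -15 relative to the gene start in Lamp1, -45 in Mcoln1, -3 in Atp6v0d1, -131 in Atp6v1a, -98 in Ctsd and -49 in Lgmn. Lamp1 held 4 copies within the 300 bases. Ctsa, Ctsl, Gaa and Gla were the other members with a copy. No member held the 10-base form with GT before and AC after the core, which 100 of the 27025 genes held. A match is a description of these letters and not a measured binding site. The median difference between Enterocyte and Stem cells, described further on, was 0.28 on the log2 scale for the 9 kept members with the core and 0.17 for the 17 kept members without it, with 6 of the 9 and 12 of the 17 positive.

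Expression was given as TPM, a relative measure scaled to transcript length whose total is fixed in each cell, and it keeps no sequencing depth. Per annotated type, the median count of genes above 0 TPM ran from 5134 in Paneth to 6713 in Enterocyte.prog.early, and per animal from 6247 to 6615 in run 1 and from 5460.5 to 5878 in run 2. Markers were listed for every annotated type but Enterocyte.prog.early and Enterocyte.prog.late, whose labels were not checked in this way. The sum of each of these lists was highest in the type of that name, except that the TA markers were highest in Enterocyte.prog.early. The targeted gene Atg16l2 was above 0 in 38 WT cells and in 0 KO cells. Markers of myeloid cells, which are rich in lysosomes, summed to means of 6.49 and 8.21 TPM in the WT animals and 7.21 and 9.93 TPM in the KO animals. Of the 9 myeloid markers found, none was at 0 in all cells. Itgam was the most widely detected, at a mean of 4.62 TPM, and made up most of the sum, and Lyz2 was above 0 in 54 cells, whereas C1qa, C1qb, C1qc, Csf1r and Tyrobp were above 0 in 2 to 6 cells each, and no cell reached 1000 TPM of the list. Unless stated otherwise, a level is the mean over 4 animals of each animal's mean TPM, with the SD over animals, and both genotypes enter it.

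Of the members, Cd63 (a tetraspanin of late endosomes and lysosomes), Ctsz (a cysteine carboxypeptidase) and Lamp1 (the major glycoprotein of the limiting membrane) were the most abundant, with mean levels over the 6 well-filled types of 363.7, 325.04 and 260.1 TPM. Psap, the precursor of the saposins that assist sphingolipid breakdown, followed at 212.7 TPM, then the pump ring subunit Atp6v0c at 207.4 TPM and the aspartic protease Ctsd at 191.3 TPM. These 6 types were Goblet, Stem, TA, Enterocyte and its early and late progenitors (Enterocyte.prog.early and Enterocyte.prog.late), each with at least 10 cells in every animal. Genes were kept for comparison when their mean was at least 10 TPM and at least 10% of cells were above 0, which 31 members passed. The members below this filter were Gla, Lipa, Npc1 and Tfeb.

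**Figure D1:**
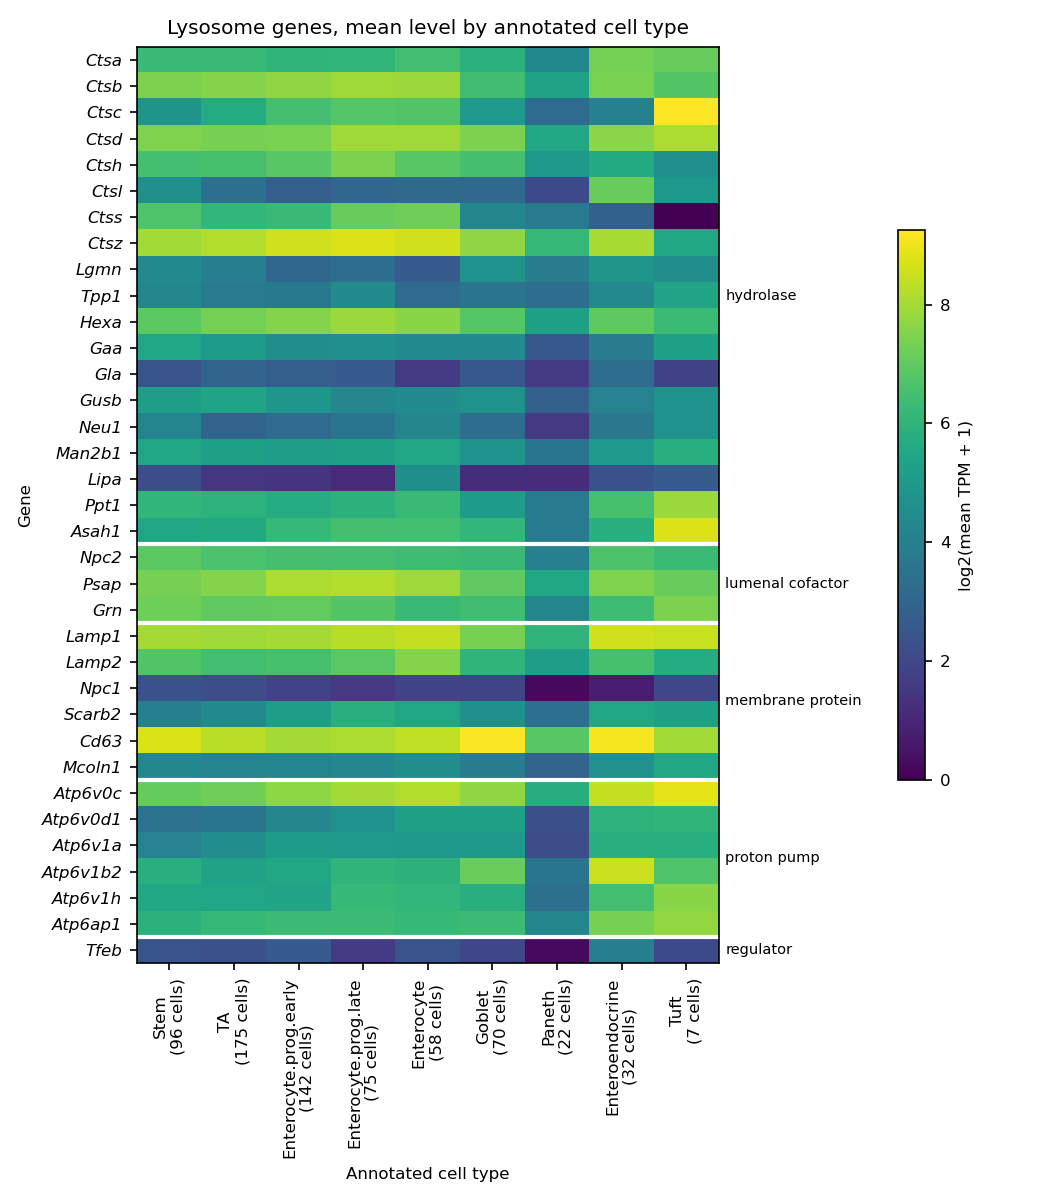
Mean level of the 35 lysosome genes (rows, grouped by class) over all cells of each annotated type (columns, with cell numbers), as log2(mean TPM + 1) on a colour scale from 0. Cd63, Ctsz and Lamp1 form bright rows, the Paneth column is mostly dark, and single bright cells mark Ctsl and Atp6v1b2 in Enteroendocrine and Ctsc and Asah1 in Tuft.

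Several cysteine proteases differed between cell types. Ctsc, a dipeptidyl peptidase that activates other proteases by trimming their ends, stood at 27.9 ± 11.5 TPM in Stem, 50.2 ± 3.02 in TA, 89.6 ± 15.1 in Enterocyte.prog.early, 115.4 ± 20.2 in Enterocyte.prog.late and 104.96 ± 14.1 in Enterocyte cells (SD, n = 4 animals). Each of the first 3 of these steps was upward in 4 of 4 animals. The last step was upward in 1 of 4, so Enterocyte.prog.late and Enterocyte did not differ beyond their spread. In Goblet cells Ctsc stood at 31.1 ± 4.63 TPM, close to the Stem level. The share of cells above 0 moved with the level, from 38 of 96 Stem cells (39.6%) to 56 of 58 Enterocyte cells (96.6%).

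Ctss, a protease that also trims the invariant chain of MHC class II, was 103.9 ± 33.7 TPM in Stem, 69.6 ± 5.70 in TA, 133.9 ± 19.1 in Enterocyte.prog.late and 153.7 ± 26.8 in Enterocyte cells. Goblet cells held 18.5 ± 4.28 TPM, with values of 16.2 and 14.6 in WT and 19.1 and 24.3 in KO animals. All 4 Goblet values lay below the lowest value of any of the other 5 types. Ctss was above 0 in 17 of 70 Goblet cells (24.3%, exact 95% binomial interval 14.8 to 36.01%) and in 57 of 58 Enterocyte cells (98.3%, 90.8 to 99.96%). These intervals cover counting error only. Ctsb, a broad cysteine protease, also set Goblet cells apart, at 84.8 ± 5.42 TPM against 170.5 ± 10.9 in Stem and 232.3 ± 7.98 in Enterocyte cells, with no overlap between the 4 Goblet values and those of any of the other 5 types.

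Ctsl and Lgmn ran the other way along the absorptive series. Ctsl, an endopeptidase, had its highest level of the 6 types in Stem cells, with 25.2 and 17.1 TPM in the WT and 36.4 and 12.1 TPM in KO animals. In TA cells it was 9.23 ± 2.89 TPM, lower than in Stem in 4 of 4 animals. In Enterocyte cells it was 9.09 ± 7.49 TPM, and there WT M2 alone (20.1 TPM) exceeded its own Stem value. Lgmn, which cleaves after asparagine, stood at 20.4 ± 2.15 TPM in Stem, 14.5 ± 2.62 in TA and 6.58 ± 8.78 in Enterocyte cells. Its Enterocyte values were uneven, with 1.44 and 19.2 TPM in the WT and 5.61 and 0 TPM in KO animals, and 8 of 58 cells were above 0. Goblet cells had 25.9 ± 8.20 TPM of Lgmn, with 36 of 70 cells above 0.

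**Figure D2:**
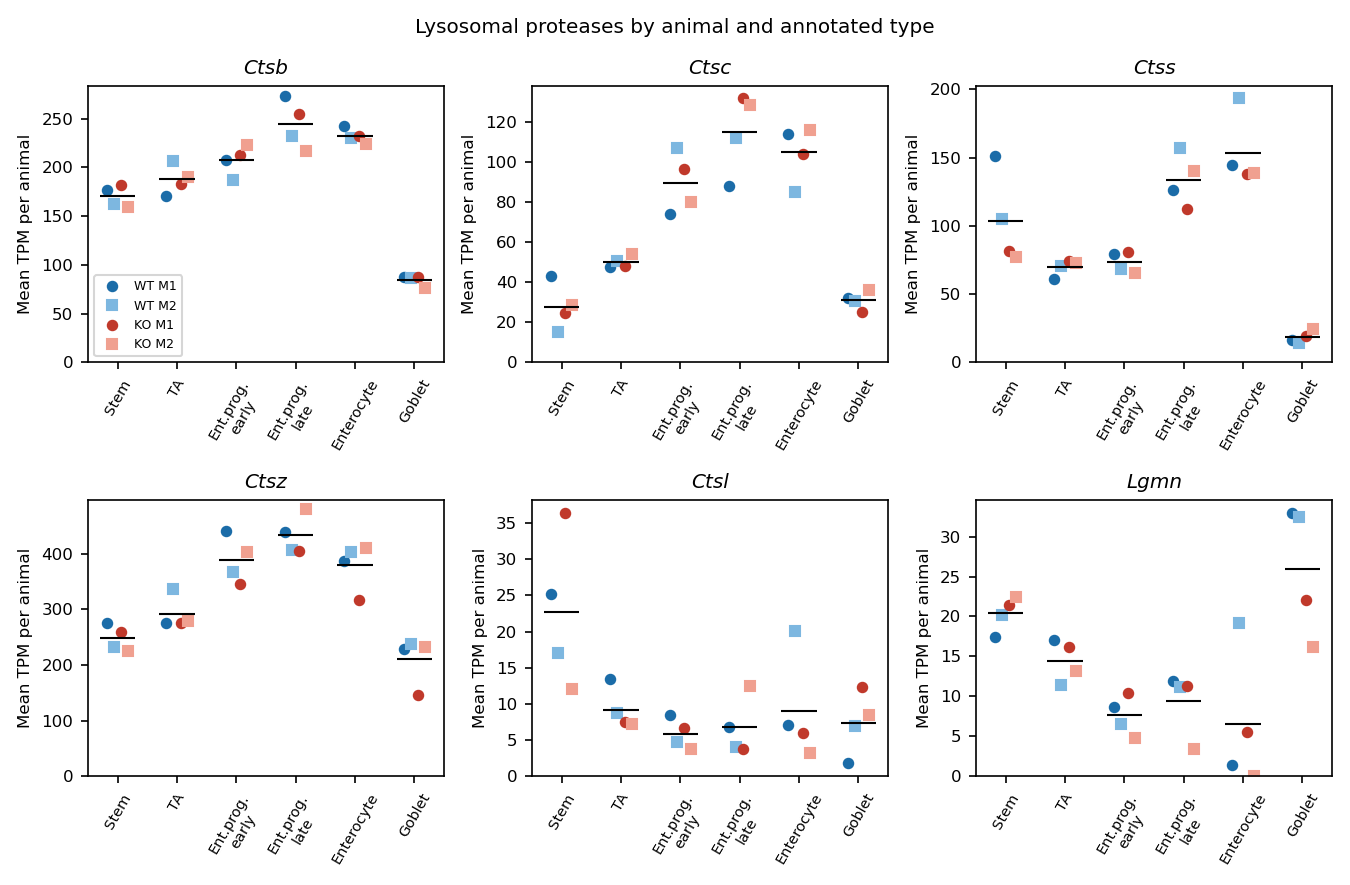
Mean TPM per animal (points; circles M1, squares M2, blue WT, red KO) of 6 lysosomal proteases in the 6 annotated types, with a bar at the mean of the 4 animals and the vertical axis from 0. Ctsc climbs from about 27.9 TPM in Stem to over 100 TPM in late progenitors, Ctsb and Ctss drop in Goblet cells, and Ctsl is highest in Stem cells.

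Ctsz was 247.6 ± 23.2 TPM in Stem, 432.4 ± 34.7 in Enterocyte.prog.late and 211.4 ± 43.2 in Goblet cells. Ctsh, an aminopeptidase, had its highest level in Enterocyte.prog.late cells (167.3 ± 18.4 TPM) and was lower in Enterocyte cells in 4 of 4 animals (112.6 ± 19.8 TPM). Ctsd ran from 160.6 ± 25.9 TPM in TA to 246.4 ± 27.4 in Enterocyte.prog.late cells. Ctsa, a carboxypeptidase that also stabilises the sialidase Neu1, stayed between 60.3 ± 15.3 and 82.9 ± 26.6 TPM in the 6 types, ranges that overlap. Tpp1, which removes tripeptides from protein ends, was low in every type. It was 18.6 ± 3.94 TPM in Stem, 22.2 ± 8.16 in Enterocyte.prog.late and 8.71 ± 1.89 TPM in Enterocyte cells. Each animal was lower in Enterocyte than in Stem cells.

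Among the glycosidases, Hexa, the alpha subunit of beta-hexosaminidase, also had its highest level in Enterocyte.prog.late cells, running from 122.97 ± 33.4 TPM in Stem to 228.5 ± 29.7 there. Gaa, which degrades glycogen, was 43.97 ± 15.5 TPM in Stem and 21.9 ± 10.8 TPM in Enterocyte cells, lower in 3 of 4 animals. Gusb, the beta-glucuronidase, was highest in TA (41.04 ± 8.35 TPM) and 18.7 ± 8.82 TPM in Enterocyte.prog.late cells. Neu1, which removes sialic acid, was 16.9 ± 5.80 TPM in Stem, 6.57 ± 1.51 in TA and 18.5 ± 4.93 TPM in Enterocyte cells, with TA below Stem in 4 of 4 animals. Man2b1, an alpha-mannosidase, varied least of these, between 25.4 ± 5.52 TPM in Goblet and 42.2 ± 7.08 TPM in Enterocyte cells. Gla, the alpha-galactosidase, stayed between 1.99 ± 0.56 and 6.84 ± 1.31 TPM.

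Of the lipid hydrolases, Lipa, the acid lipase that releases cholesterol and fatty acids from lipoprotein lipids, was highest in Enterocyte cells among the 6 types. Its level there was 33.1 and 16.3 TPM in the WT and 22.5 and 18.5 TPM in KO animals, above every value of the other 5 types, where the mean was at most 3.59 TPM. It was above 0 in 23 of 58 Enterocyte cells (39.7%) and in 7 of 75 Enterocyte.prog.late cells (9.33%). Asah1, the acid ceramidase, was 43.7 ± 9.11 TPM in Stem and 87.9 ± 11.97 TPM in Enterocyte cells, and 67.4 ± 10.9 TPM in Goblet cells. Ppt1, which removes palmitate from proteins, was 65.3 ± 19.7 TPM in Stem, 76.95 ± 40.6 in Enterocyte and 32.1 ± 8.14 in Goblet cells.

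The lumenal cofactors split in direction. Psap was 161.8 ± 10.4 TPM in Stem and 284.6 ± 31.95 TPM in Enterocyte.prog.late cells. Npc2, which hands cholesterol to the membrane exporter Npc1, was 121.5 ± 16.5 TPM in Stem and 80.3 ± 7.29 TPM in Enterocyte cells, lower in 4 of 4 animals and with no overlap. Grn, the progranulin gene, was 149.5 ± 41.5 TPM in Stem and 71.2 ± 26.5 TPM in Enterocyte cells, also lower in 4 of 4 animals.

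Among the membrane proteins, Lamp2, which also serves chaperone-mediated autophagy, was 102.5 ± 24.8 TPM in Stem, 120.96 ± 23.1 in Enterocyte.prog.late and 187.2 ± 22.3 in Enterocyte cells. Its 4 Enterocyte values (209.5, 199.7, 180.4 and 159.1 TPM) lay above all values of the other 5 types. Lamp1 was 257.97 ± 49.97 TPM in Stem and 335.8 ± 27.7 TPM in Enterocyte cells, and 168.8 ± 35.4 TPM in Goblet cells. Scarb2, an integral protein of the lysosomal membrane, was 14.7 ± 6.13 TPM in Stem, 59.4 ± 14.7 in Enterocyte.prog.late and 45.1 ± 19.03 in Enterocyte cells. Cd63 was highest in Goblet cells, with 604.2 and 665.6 TPM in the WT and 513.95 and 552.0 TPM in KO animals, all above the highest value of the other 5 types. It was lowest in Enterocyte.prog.early cells (259.4 ± 39.6 TPM). Mcoln1, the lysosomal calcium channel, stayed between 13.4 ± 3.26 and 22.9 ± 7.78 TPM, and Npc1 was at most 4.30 ± 1.56 TPM in any of the 6 types.

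The pump subunits were lowest in Stem or TA cells, or in Enterocyte.prog.early cells for Atp6v1h. Atp6v0d1, which couples the membrane ring to the stalk, was 9.76, 8.70, 13.3 and 8.79 TPM in Stem cells of the 4 animals. In Enterocyte cells the same animals had 36.7, 37.6, 57.1 and 26.4 TPM, and in Goblet cells 34.9, 42.4, 34.03 and 40.6 TPM. The Stem values overlapped neither the Enterocyte nor the Goblet values, while the Enterocyte and Goblet values overlapped. Atp6v0c, the subunit of the proton-carrying ring, was 129.95 ± 59.7 TPM in Stem and 300.5 ± 93.7 TPM in Enterocyte cells. Atp6v1a, the catalytic subunit, was 16.3 ± 3.87 TPM in Stem, 33.6 ± 5.77 in Enterocyte.prog.early and 30.03 ± 2.97 in Goblet cells. Atp6v1b2, the partner of the catalytic subunit in the ATP-binding head, was 55.2 ± 15.1 TPM in Stem and 60.6 ± 10.3 TPM in Enterocyte cells, which overlap. In Goblet cells it was 86.9, 139.4, 181.9 and 119.7 TPM, each value above all values of the other 5 types. Atp6v1h, a regulatory subunit of the head, ran from 40.96 ± 2.30 TPM in Enterocyte.prog.early to 69.2 ± 22.8 TPM in Enterocyte cells. In Enterocyte.prog.late cells it was uneven, with 91.4 and 87.8 TPM in the WT and 34.8 and 52.9 TPM in KO animals. Atp6ap1, an accessory subunit, differed little, with levels of 63.1 ± 15.4 to 79.3 ± 10.7 TPM.

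**Figure D3:**
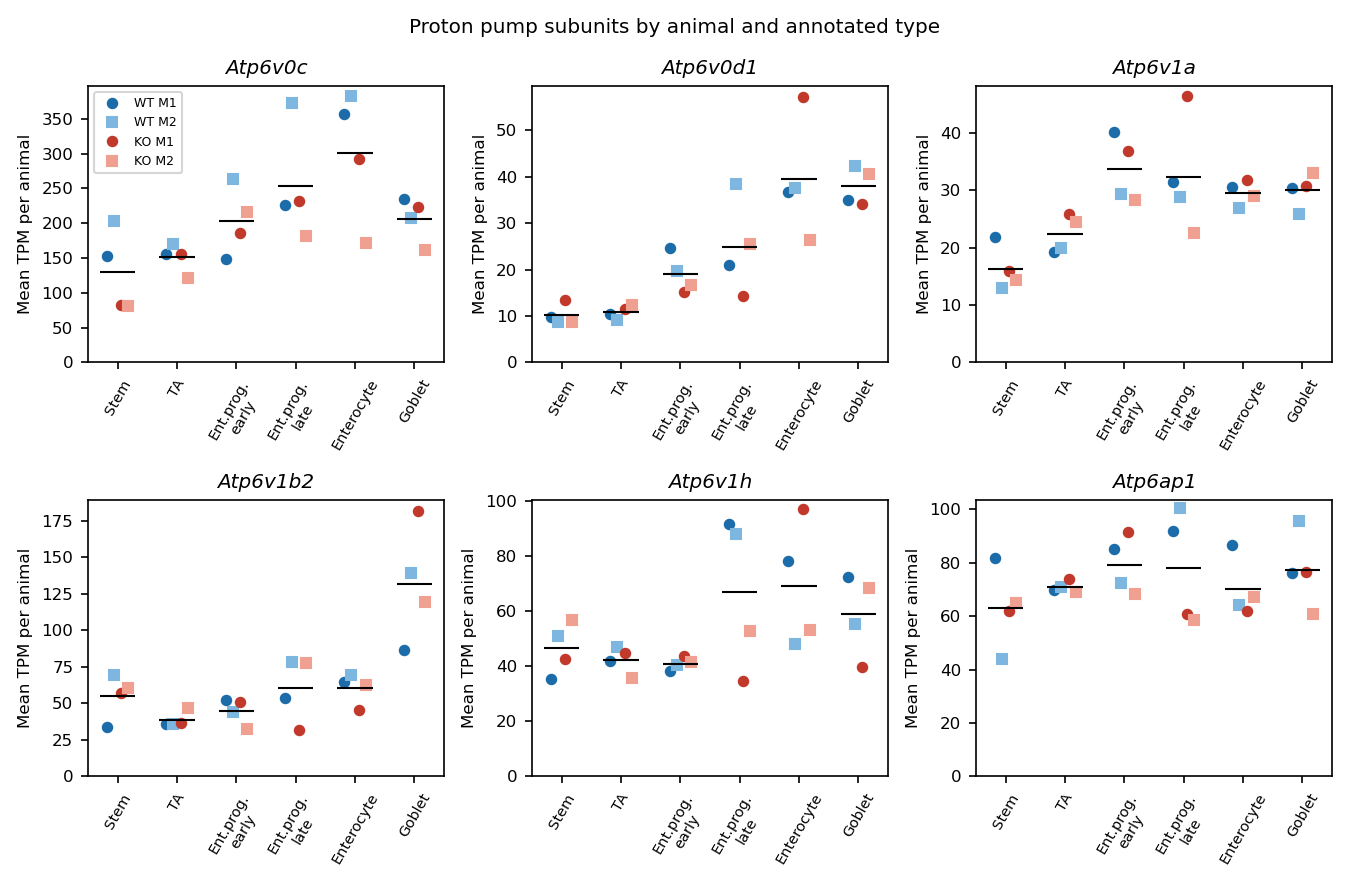
Mean TPM per animal (points; circles M1, squares M2, blue WT, red KO) of the 6 proton pump members in the 6 annotated types, with a bar at the mean of the 4 animals and the vertical axis from 0. Atp6v0d1 lies near 10.1 TPM in Stem cells and near 39.4 TPM in Enterocyte cells, Atp6v1b2 peaks in Goblet cells, and the KO values of Atp6v0c lie below the WT values in Stem and Enterocyte cells.

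Tfeb, the transcription factor that switches on many lysosome genes, was itself sparse. Its level was between 1.93 ± 1.47 and 5.29 ± 3.92 TPM in the 6 types, and 8% to 18.3% of the cells of a type were above 0. No order between the types could be read from these values.

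Within-animal differences put these levels on 1 scale. They are differences of log2(mean TPM + 1), which understate the change of low genes, and a member was counted when all 4 animals had the same sign and the mean difference was at least 1. The annotated types may have been defined from these same values, so no test was made. Between Enterocyte and Stem cells 5 of 31 members were higher, against 14.5% of the 6714 genes, and 3 were lower, against 23.5%. The higher members were Ctsc (1.95 ± 0.42), Atp6v0d1 (1.83 ± 0.25), Scarb2 (1.55 ± 0.84), Atp6v0c (1.25 ± 0.40) and Asah1 (1.004 ± 0.44). The lower members were Lgmn (-2.32 ± 1.89), Grn (-1.10 ± 0.74) and Tpp1 (-1.01 ± 0.51). Of these, Asah1 and Tpp1 lay just inside the size that was counted, and Atp6v1a (0.85 ± 0.25) and Lamp2 (0.88 ± 0.33) just outside it.

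The median difference of the 31 members was 0.33, with medians of 0.22 to 0.45 in the 4 animals, beside -0.24 over all 6714 genes. By class it was 0.69 for the pump, 0.40 for the membrane proteins and 0.16 for the hydrolases. The 3 lumenal cofactors had a median of -0.59, with Npc2 (-0.59) and Grn (-1.10) lower and Psap (0.53) higher. As means over animals, all 6 pump differences were positive under each of the 4 scalings tried. As first scaled, 4 of the 6 were positive in 4 of 4 animals, Atp6v1b2 in 3 and Atp6v1h in 2. The differences of Ctsa, Ctsd and Lamp1 changed sign under quantile normalization, to -0.014, -0.0079 and -0.011. The scaling moved the median of all genes, to -0.11 with quantile normalization and 0.10 with log values averaged over cells. With the latter the counts were 11 higher and 0 lower, and the share of all genes counted was not computed there.

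Between Goblet and Stem cells 2 members were higher, against 9.55% of all genes, and 2 were lower, against 16.3%. Both higher members belong to the pump, Atp6v0d1 (1.82 ± 0.40) and Atp6v1b2 (1.24 ± 0.32), and both lower members are cysteine proteases, Ctss (-2.40 ± 0.68) and Ctsl (-1.59 ± 1.17). Ctsb (-0.9997 ± 0.067) and Ppt1 (-0.99 ± 0.56) were lower in 4 of 4 animals and fell just short of the size counted. The median was -0.34 over the members and -0.32 over all genes. By class it was 0.81 for the pump, -0.42 for the hydrolases, -0.41 for the membrane proteins and -0.64 for the lumenal cofactors. Secreted products take part of the fixed TPM total of a Goblet cell. A list of 24 secretory genes of Goblet and Paneth cells summed to 10.6% of TPM in Goblet cells and 0.135% in Stem cells, and after rescaling without them, a step added after the data were seen, the member median was -0.23, with the same counts of 2 and 2. Paneth markers summed to 29799 TPM in cells annotated Goblet, and their part in these differences was not tested. With KO M1 left out 1 member was counted lower, and with WT M1 or WT M2 left out the count was 4. The share of all genes counted was not computed after rescaling or with an animal left out.

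Between Enterocyte and Goblet cells 5 members were higher, against 17.2% of all genes, and 2 were lower, against 15.7%. The higher members were Ctss (2.99 ± 0.50), Ctsc (1.72 ± 0.24), Lamp2 (1.67 ± 0.56), Ctsb (1.44 ± 0.065) and Lamp1 (1.01 ± 0.22). The lower members were Lgmn (-2.61 ± 1.62) and Atp6v1b2 (-1.08 ± 0.65). Here the members had a median of 0.43 beside -0.018 over all genes. By class it was -0.0052 for the pump, 1.01 for the membrane proteins, 0.43 for the hydrolases and 0.054 for the lumenal cofactors. Atp6v0d1 (0.0075 ± 0.56), Atp6v1a (-0.018 ± 0.11) and Npc2 (0.054 ± 0.19) changed sign between scalings. Without KO M1, 1 member was counted lower, and the share of all genes was not computed in that setting.

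The rarer types are described from all their cells and were not compared. In the 32 Enteroendocrine cells, which secrete gut hormones, Ctsl averaged 135.97 TPM (median 36.3, highest cell 1248) and was above 0 in 19 cells. Its animal means were 237.7 and 100.1 TPM in the WT and 187.03 and 65.1 TPM in KO animals, each above every value of the 6 larger types. Atp6v1b2 averaged 367.8 TPM with 30 of 32 cells above 0, and its animal means of 356.8, 149.96, 504.6 and 372.4 TPM were above the Stem and Enterocyte values of the same animals. Lamp1 (378.8 TPM) and Cd63 (562.7 TPM) were also abundant, and Tfeb averaged 14.7 TPM with 9 of 32 cells above 0. Ctss was above 0 in 4 of these cells (6.35 TPM), and Ctsc in 6 (15.7 TPM). Markers of stroma, endothelium and red cells were highest in this type (1436 TPM), and their part in these levels was not tested.

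The 7 Tuft cells, a chemosensory type, had the highest mean levels of Asah1 (436.1 TPM, 7 of 7 cells above 0), Ctsc (608.7 TPM, 5 of 7 cells, highest cell 2170), Ppt1 (229.4 TPM, 7 of 7) and Atp6v0c (466.9 TPM, 6 of 7). The 4 animal means of Ctsc ran from 0 to 1235 TPM, each from 1 or 2 cells. Ctss was listed at 0 in all 7 cells, which allows a share of cells above 0 of up to 42.9% (3 cells of 7, counting error only). In the 22 Paneth cells, the antimicrobial cells of the crypt base, most members were low, with Lamp1 at a mean of 64.4 TPM (median cell 22.95), Cd63 at 113.97 TPM (54.8) and Atp6v0d1 at 3.78 TPM (1.89). The animal means were uneven, and those of Lamp1 ran from 22.5 to 196.4 TPM. The same 24 secretory genes summed to 52.3% of Paneth TPM. After rescaling each cell without them Lamp1 averaged 98.5 TPM and Cd63 211.6 TPM.

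The comparison of KO with WT asked whether loss of Atg16l2 altered these genes. Averaged over the 6 types with equal weight, 16 of the 31 kept members were higher in KO, against 54.9% of all genes, and 15 were lower. Their median difference was 0.010 on the log2(mean TPM + 1) scale, beside 0.026 over all 6714 genes. By class the median was -0.012 for the hydrolases, 0.033 for the lumenal cofactors, 0.13 for the membrane proteins and -0.12 for the pump. limma with Benjamini-Hochberg adjustment called 0 of 31 members, and 0% of the 6714 genes in either direction. At an unadjusted p under 0.05 limma gave 1 member, Atp6v0c, and 7.6% of all genes, and the smallest adjusted p of a member was 0.587. With 2 animals per genotype these p-values rest on the spread between animals, which limma moderated with that of all kept genes. A difference that misses the threshold is not shown to be absent.

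Both KO animals lay above both WT animals for 4 members, against 22% of all genes, and below them for 6, against 17.1%. Ppt1 had 50.7 and 50.8 TPM in the WT and 74.2 and 57.1 TPM in KO animals, a difference of 0.32 (SE 0.16, limma adjusted p = 0.684) that was present in run 1 (0.34) and run 2 (0.50). Scarb2 had 22.5 and 35.5 TPM in the WT and 39.04 and 34.3 TPM in KO animals, and separated the genotypes only once log values were averaged over types (0.43, SE 0.24; 0.58 in run 1 and 0.23 in run 2). Ctsd had 187.9 and 171.1 TPM in the WT and 202.8 and 203.2 TPM in KO animals (0.20, SE 0.13), with 0.49 in run 1 and 0.050 in run 2. Neu1 had 9.53 and 12.1 TPM in the WT and 11.8 and 14.3 TPM in KO animals (0.28, SE 0.22), which also overlap in TPM and separated on the averaged log scale alone. Its difference was 0.85 in run 1 and 0.013 in run 2, and -0.24 without the run 1 cells of KO M2.

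On the lower side, Atp6v0c measured 212.3 and 266.7 TPM in the WT and 195.04 and 155.4 TPM in KO animals. The difference was -0.46 (SE 0.17, unadjusted limma p = 0.0245, adjusted p = 0.587). It was -1.28 when log values were averaged over cells (limma adjusted p = 0.288), and over all alternatives it ran from -1.28 to -0.29, with limma adjusted p from 0.119 to 0.994. Atp6ap1 had 81.8 and 74.7 TPM in the WT and 71.01 and 64.8 TPM in KO animals (-0.18, SE 0.15), Atp6v1h 59.5 and 54.9 against 50.5 and 51.5 TPM (-0.15, SE 0.15), and Ctss 96.5 and 101.6 against 84.5 and 86.4 TPM (-0.08, SE 0.14). Each of these 3 had the opposite sign in run 1 cells alone, with 0.12, 0.088 and 0.14. Ctsh had 124.4 and 107.6 against 104.8 and 108.03 TPM (-0.15, SE 0.14), with -0.35 in run 1 and -0.027 in run 2, and its TPM values overlap, so that it separated on the averaged log scale alone. The sixth separated member, Atp6v0d1, had 22.9 and 25.99 TPM in the WT and 24.3 and 21.7 TPM in KO animals, and likewise separated on that scale alone (-0.082, SE 0.18).

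The direction of the members as a whole differed between the runs. In run 1 cells their median difference was 0.20 and both KO animals lay above both WT animals for 14 members and below for 2, against 26.8% and 13.5% of all genes in that run. In run 2 cells the median was -0.10, with 1 member above and 6 below, against 13.4% and 19.7%. The medians over all genes were 0.087 and -0.034. When KO M2 was represented by its run 2 cells alone, 1 member was above and 8 were below, against 12.1% and 22% of all genes.

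**Figure D4:**
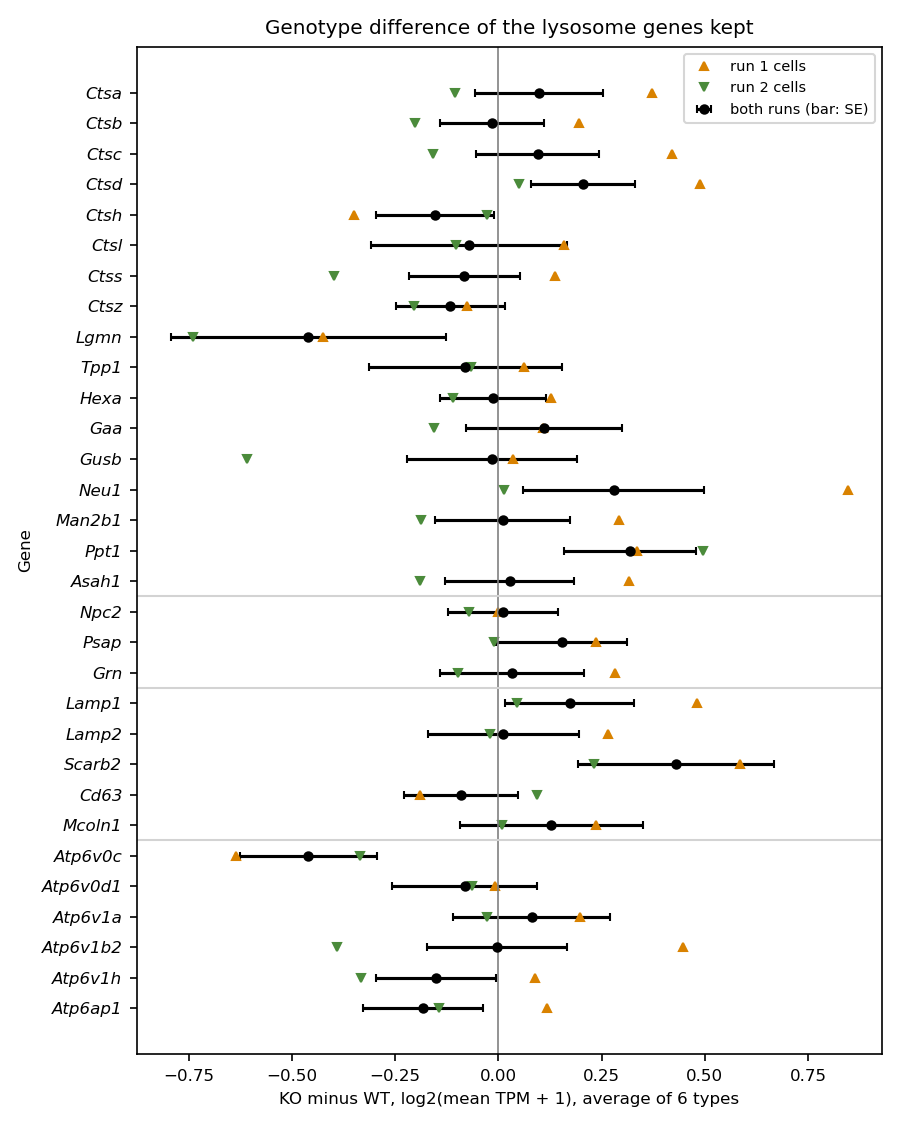
Difference KO minus WT of each of the 31 kept members, as log2(mean TPM + 1) averaged over 6 types, for both runs together (black points, bars are the SE from limma), run 1 cells (orange triangles) and run 2 cells (green triangles), with lines between the classes. Most orange triangles lie to the right of the green ones, while Atp6v0c is left of 0 in both runs and Ppt1 right of 0 in both.

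Atp6v0c was lower in KO in each run. Its level in run 1 was 280.2 and 331.2 TPM in the WT and 255.5 and 166.8 TPM in KO animals, and in run 2 it was 155.4 and 183.1 against 144.9 and 129.3 TPM. Neither run had overlap between the genotypes, and run 1 exceeded run 2 in 4 of 4 animals. The gene was above 0 in 62.5% and 72.5% of WT cells and in 57.1% and 52% of KO cells. By run, these shares were 87.8% and 91.25% against 75% and 67.6% in run 1, and 38.5% and 52.1% against 41.2% and 36.8% in run 2, so that they overlapped in run 2. The mean of the cells above 0 was 311.2 and 337.98 TPM in the WT and 304.5 and 302.8 TPM in KO animals. By type, the difference was -1.11 in Stem (SE 0.28, unadjusted limma p = 0.00193, adjusted p = 0.892), with 153.02 and 203.8 TPM in the WT and 82.2 and 80.8 TPM in KO animals, and it ran from -2.44 to -0.55 over the alternatives. In Enterocyte cells the WT animals had 356.1 and 381.9 TPM and the KO animals 292.1 and 171.8 TPM (-0.72, SE 0.27, adjusted limma p = 0.486), with -1.61 to -0.34 over the alternatives. In the other 4 types the genotypes overlapped, with differences of -0.24 in TA, 0.015 in Enterocyte.prog.early, -0.50 in Enterocyte.prog.late and -0.22 in Goblet cells. limma's F test of whether the genotype difference varied over the 6 types gave p = 0.0490 for Atp6v0c (adjusted p = 0.680). That test called 0 of 31 members and 0.0149% of all genes, and at an unadjusted p under 0.05 it gave 1 of 31 members and 490 of 6714 genes. The mouse genome has processed pseudogenes of Atp6v0c, and how the counting divided reads between them is not given in the sources used here, so its level is uncertain.

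Within the 6 types limma called 0 members. Those higher in KO, by any amount, numbered 19 of 31 in Stem (52.6% of all genes), 19 of 29 in TA (60.7%), 19 of 28 in Enterocyte.prog.early (59%), 14 of 29 in Enterocyte.prog.late (43.7%), 18 of 29 in Enterocyte (46.6%) and 13 of 29 in Goblet cells (49.5%). Of all genes it called 0% in Stem, 0.0147% higher and 0.0442% lower in TA, 0% in Enterocyte.prog.early, 0.0817% higher and 0% lower in Enterocyte.prog.late, 0.0342% higher and 0% lower in Enterocyte, and 0% higher and 0.0161% lower in Goblet cells. At an unadjusted p under 0.05 limma gave 3 of 31 members in Stem (5.5% of all genes), 2 of 29 in TA (7.97%), 0 of 28 in Enterocyte.prog.early (5.51%), 2 of 29 in Enterocyte.prog.late (5.6%), 1 of 29 in Enterocyte (8.23%) and 0 of 29 in Goblet cells (6.07%).

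TA cells, the most numerous type, had the most members on the higher side. Both KO animals lay above both WT animals for 13 of 29 members, against 26.7% of all genes, and below for 2, against 13.3%, and the member median was 0.15 beside 0.080 over all genes. In run 1 cells these counts were 13 and 1, against 24.6% and 12.8% of all genes. In run 2 cells they were 3 and 3, against 17.5% and 14.6%. Without the run 1 cells of KO M2 they were 8 and 2, against 17.3% and 16.2% of all genes. Grn had 112.7 and 97.97 TPM in the WT and 132.8 and 162.98 TPM in the KO animals (0.48, SE 0.20, unadjusted limma p = 0.0302), with 0.48 in run 1 and 0.54 in run 2. Ctsh had 123.7 and 95.6 TPM in the WT and 68.97 and 80.3 TPM in KO animals (-0.54, SE 0.21, unadjusted limma p = 0.0236), with -0.56 in run 1 and -0.37 in run 2. The adjusted limma p was 0.576 for Grn and 0.572 for Ctsh.

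In the other types the counts above and below were 5 and 5 in Stem (18.2% and 15.8% of all genes), 6 and 2 in Enterocyte.prog.early (22.7% and 13.5%), 4 and 3 in Enterocyte.prog.late (14.5% and 19.7%), 2 and 5 in Enterocyte (16.3% and 21.6%) and 4 and 5 in Goblet cells (15.7% and 20.1%). In Stem cells Scarb2 had 9.97 and 9.65 TPM in the WT and 22.6 and 16.4 TPM in KO animals (0.91, SE 0.51). In Enterocyte.prog.early cells Ctsd had 160.6 and 127.1 TPM in the WT and 181.5 and 186.8 TPM in KO animals (0.36, SE 0.19), and Tpp1 15.1 and 14.8 against 10.8 and 9.45 TPM (-0.52, SE 0.32).

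In Enterocyte.prog.late cells the pump subunit Atp6v1h measured 91.4 and 87.8 TPM in the WT and 34.8 and 52.9 TPM in KO animals. The difference was -1.04 (SE 0.32, unadjusted limma p = 0.00788, adjusted p = 0.720), with -1.10 in run 1 and -0.85 in run 2. Without KO M2 it was -1.34, and limma then called it (adjusted p = 0.0248), with KO M1, whose 10 cells were the fewest of this type, assumed to vary like the WT animals. Neu1 in the same type had 9.81 and 4.68 TPM in the WT and 17.1 and 15.5 TPM in KO animals (1.14, SE 0.61), but differed by 2.50 in run 1 and -0.37 in run 2. In Enterocyte cells Gaa had 11.1 and 17.1 TPM in the WT and 36.4 and 22.9 TPM in KO animals (1.01, SE 0.47), with -0.044 in run 1 and 1.62 in run 2. In Goblet cells Ctsa had 45.0 and 57.2 against 57.3 and 81.5 TPM (0.42, SE 0.36; 0.83 in run 1 and -0.22 in run 2). Lgmn in Goblet cells had 32.9 and 32.5 TPM in the WT and 22.015 and 16.2 TPM in KO animals (-0.76, SE 0.42), with -0.029 in run 1 and -3.62 in run 2.

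The other genes of the pump were read beside the 6 members, which gave 17 kept genes. Of these, 13 were lower in KO, beside 3030 of the 6714 genes, with a median difference of -0.13 beside 0.026 over all genes. Both KO animals lay below both WT animals for 9, against 17.1% of all genes, and above for 1, Atp6ap2, an accessory subunit. The lowest p-values among the others were those of Atp6v1f, a stalk subunit (245.3 and 281.4 TPM in WT, 201.9 and 170.6 TPM in KO; -0.53, SE 0.14), and the small ring-associated subunits Atp6v0e (-0.48, SE 0.16), Atp6v0b (-0.42, SE 0.16) and Atp6v0e2 (-0.55, SE 0.23). limma called none of the 17. The pump median was -0.0071 in run 1 and -0.14 in run 2, beside 0.087 and -0.034 over all genes. Without the run 1 cells of KO M2 the pump median was -0.21, with 15 of 17 lower by any amount. The share of all genes lower by any amount was not computed in that setting. By the different measure of separation, both KO animals there lay above both WT animals for 12.1% of all genes and below for 22%. The median there was -0.038 over the 5770 genes longer than 1000 bases and -0.22 over the 461 of at most 1000 bases.

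Transcript length moved with these differences. Across the 17 pump genes Spearman's rho between the difference and the length of the longest coding transcript was 0.66, a description across genes of the same libraries. Among all kept genes with a length, the 461 of at most 1000 bases had a median difference of -0.27 and the 5770 longer ones 0.045. In run 1 these medians were -0.57 and 0.12, and in run 2 they were 0.00089 and -0.039. Of the pump genes, the 2 at or under 1000 bases had a median of -0.47, and the 15 longer ones a median of -0.082, with 11 lower. The share of lower genes among all 5770 longer ones was not computed. The part of length in the pump result was not tested.

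**Figure D5:**
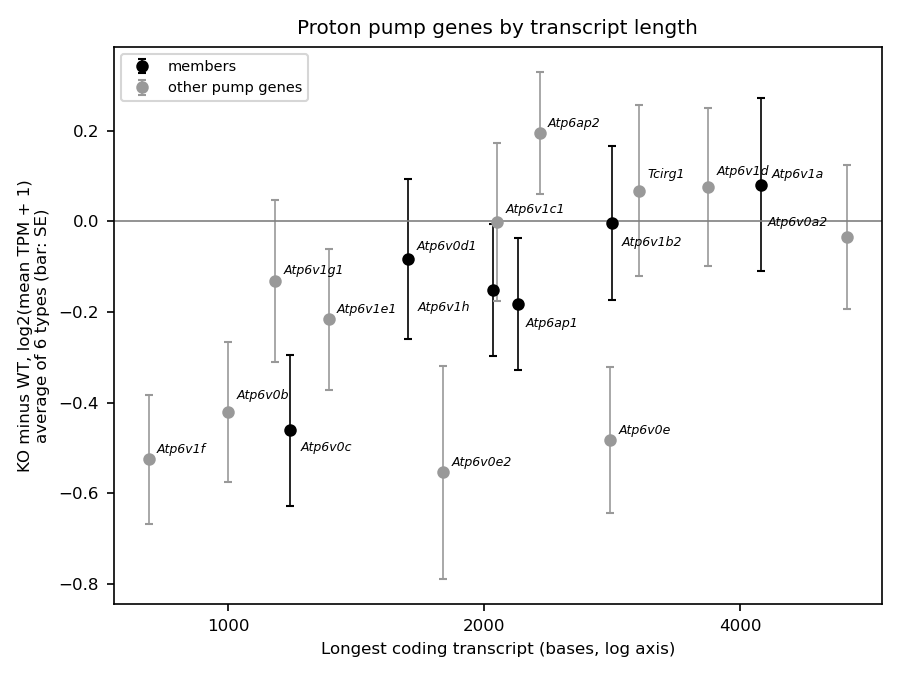
Difference KO minus WT (vertical axis, log2(mean TPM + 1) averaged over 6 types; bars are the SE from limma) of 17 proton pump genes against the length of the longest coding transcript (horizontal log axis, bases), with the 6 members in black and the other genes in grey. The genes at or below -0.42 are Atp6v1f, Atp6v0b, Atp6v0c, Atp6v0e2 and Atp6v0e, the last with 2812 bases, and the shortest gene above 0 is Atp6ap2, with 2324 bases.

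The 17 pump genes were also read between cell types. In Enterocyte against Stem cells 14 had a higher mean, with a median of 0.85 beside -0.24 over all genes. In 4 of 4 animals 9 were higher, against 1695 of the 6714 genes, and 2 were lower, against 2460. By the size counted 6 were higher, against 14.5% of all genes, and 1 lower, against 23.5%. The lower one was Tcirg1 (-1.76 ± 0.72), an alternative subunit of the membrane sector, while Atp6v0a2, another form of the same subunit, was higher by 2.48 ± 0.61. In Goblet against Stem cells 13 had a higher mean, with a median of 0.52 beside -0.32 over all genes. In 4 of 4 animals 10 were higher, against 1076 of the 6714 genes, and 1 was lower, against 2335. By the size counted 3 were higher, against 9.55% of all genes, and 0 lower, against 16.3%. In Enterocyte against Goblet cells 10 had a higher mean, with a median of 0.21 beside -0.018 over all genes. In 4 of 4 animals 4 were higher, against 1863 of the 6714 genes, and 3 were lower, against 1717. By the size counted 1 was higher and 1 lower, against 17.2% and 15.7% of all genes.

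A further 83 lysosome genes were listed beside the members, of which 49 passed the filter. These 49 include the kept pump genes above that are not members, so their counts overlap with those of the pump. Atp6v1f, Atp6v0b, Atp6v0e and Atp6v0e2, for example, enter both. limma called 0 of these 49 for KO against WT, with 7 at an unadjusted p under 0.05, against 7.6% of all genes. They were higher in 22 and lower in 27 cases, with a median of -0.0069, and separated the genotypes upward for 7, against 22% of all genes, and downward for 14, against 17.1%. Between Enterocyte and Stem cells 8 of the 49 were higher by the size counted, against 14.5% of all genes, and 3 lower, against 23.5%. The highest were Atp6v0a2, Acp5 (2.44 ± 0.46), an acid phosphatase, and Tmem175 (1.30 ± 0.62), a lysosomal ion channel. The lower ones were Gm2a (-2.12 ± 0.41), the activator of ganglioside breakdown, Tcirg1 and Tspan1 (-1.62 ± 0.69), a tetraspanin.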

How the data were processed

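Single-cell libraries were compared between WT and Atg16l2-/- mice. The authors deposited 1 table of TPM values; Bowtie, TopHat and RSEM are named in the submitters' processing notes, and versions, parameters and genome build are not given in the sources used here. The labels' protocols name SMART-Seq2 and also a 10X kit, and the table holds TPM per cell, so counting noise cannot be computed. Groups, runs, animal codes and the authors' 9 cell types were read from the sample labels, and how the types were assigned is not stated. No cell was removed and no doublet caller was run. TPM was averaged over the cells of each animal and type and taken as log2(TPM + 1). Genes with a mean of at least 10 TPM and above 0 in at least 10% of cells were kept. Genotypes were compared with limma 3.58.1 in R 4.3.3 (lmFit and eBayes with trend, two-sided, Benjamini-Hochberg adjustment over all kept genes, threshold 0.05), for the unweighted mean of 6 types, within each type, and as an F test of the genotype by type terms over 24 profiles. The scripts were tested on simulated data. Differences between types were taken within animals, with no test. Transcript lengths came from GENCODE (longest protein coding transcript, found for 92.8% of kept genes) and promoters from RefSeq. The members and lists were chosen with earlier results of these data known. Named members were those passing or, failing that, up to 5 per direction on the average and 1 per type with the smallest unadjusted p among members whose KO animals both lay beyond both WT animals; the 4 largest Enterocyte minus Stem differences per class; the 4 largest Goblet minus Stem differences; the 3 most abundant; and those below the filter. For the other lysosome genes these were any passing and up to 3 per direction by Enterocyte minus Stem difference. Other members are described by level. Alternatives were the pseudocount, the filter, cell averaging, scaling, runs, cells, units, eBayes trend, the replicate number as a block, the size counted and leaving out each animal.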

Additional observations from a re-analysis of the deposited data

How the results depend on the processing

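Precision was limited by 2 animals per genotype and by few cells in some types (10 in 1 profile), and TPM keeps no depth. The limma count of called members stayed at 0 for the average, the interaction and each type under every alternative run, except that leaving out 1 animal each gave 0 to 1 in Enterocyte.prog.late, where Atp6v1h passed without KO M2 (-1.34, adjusted p = 0.0248). Over all alternatives its adjusted p ran from 0.0248 to 0.9998. Leaving out 1 animal leaves that genotype with a lone sample, assumed to vary like the others. The replicate number did not pair the animals (correlation -0.13 between genotypes). The fit with the replicate block called 0 members, with a median of 0.010, and the crossed pairing, added after the data were seen, also called 0.

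The median KO minus WT difference, 0.010 as reported, was 0.20 in run 1 cells, -0.10 in run 2 cells, 0.072 in cells with at least 5000 genes and -0.11 without the run 1 cells of KO M2. In run 1 cells the average differences of Atp6ap1 (0.12), Atp6v1h (0.088) and Ctss (0.14) changed sign, as did Gaa in Enterocyte (-0.044). In run 2 cells Neu1 in Enterocyte.prog.late (-0.37) and Ctsa in Goblet (-0.22) changed sign. Without the run 1 cells of KO M2 the average of Neu1 (-0.24) and Ctsa in Goblet (-0.15) did. For the members named on the average these 4 changes of sign were the only changes of direction or of side of the threshold, and within types the other 4 and Atp6v1h were.

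For Enterocyte against Stem the counts of 5 higher and 3 lower became 3 and 1 with a filter of 50 TPM and 11 and 0 with log values averaged over cells (median 0.56). With quantile normalization 1 was lower (median 0.15), in run 1 cells 1 was lower, and with a size of 0.5 there were 10 higher. Leaving out 1 animal gave medians of 0.22 to 0.35. For Goblet against Stem the 2 higher and 2 lower became 4 lower with a pseudocount of 0.1, 1 lower with a pseudocount of 10, 1 and 1 with the filter of 50 TPM, and 6 higher with log values averaged over cells (median -0.18). In run 2 cells 7 were lower (median -0.64), with a size of 0.5 there were 5 higher and 10 lower, and leaving out 1 animal gave 1 to 4 lower. For Enterocyte against Goblet the 5 higher became 9 with log values averaged over cells, 9 in run 2 cells and 11 with a size of 0.5. The 2 lower became 1 with a pseudocount of 10, with the filter of 50 TPM, in either run alone and without the run 1 cells of KO M2, and 1 to 3 when 1 animal was left out. The stricter filter removes genes. For the others the cause was not tested. The share of all genes counted was not computed under these alternatives, so a changed count is not shown to be particular to the members. With log values averaged over cells the median of all genes was 0.10 for Enterocyte against Stem. It was -0.097 for Goblet against Stem and 0.074 for Enterocyte against Goblet.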
